A study of Homo sapiens with 4 samples.

Results

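Chromatin accessibility was examined at 43 genes that encode the DNA replication machinery, in TMD8 cells with and without silencing of IRF4. The genes were chosen by function. An ATAC-seq interval was assigned to one of them when its midpoint lay inside the gene body, and otherwise when that gene had the nearest protein-coding gene end within 100 kb. By this rule 115 of 73135 intervals belonged to 41 of the 43 genes. Of these, 45 were gene-end intervals, which lie within 1 kb of an end of a protein-coding gene, and 70 were other intervals. The genes held between 1 and 10 intervals each, with a median of 2, and 12 genes held 1. No interval was assigned to MCM2 or ORC3, because the intervals at their starts lie inside or nearer to TPRA1 and RARS2. At PCNA and POLE the interval over the first start was likewise assigned to a neighbour, CDS2 and PXMP2. Such start intervals are described with the neighbour named.

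TMD8 is an established line of activated B cell-like (ABC) diffuse large B cell lymphoma, and IRF4 is a transcription factor on which such cells depend. In ATAC-seq, a transposase cuts and tags accessible DNA, so that the read count of an interval measures how open it is. The study compared 2 control libraries, from cells given a scrambled short hairpin RNA (shRNA), with 2 shIRF4 libraries, from cells given an shRNA against IRF4. The titles write shIRF4 and the library names siIRF4. The labels give neither the time after silencing nor the remaining IRF4, and do not say that the libraries of a group came from separate cultures, so p-values measure the spread between these libraries, which may be technical.

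Read counts summed to 12152153 and 13609123 for the control pair and to 17954924 and 9112860 for the shIRF4 pair. Levels are in CPM, read counts scaled to the library size with TMM factors. Between the control libraries the spread was close to counting noise (chi-square per degree of freedom 1.04, against 2.01 for the shIRF4 pair). Values without single libraries, and with both control libraries merged into 1 sample, are given where they end the call of a replication gene's interval or sum, or of an interval named at RB1, E2F5, MYBL2, WEE1 or TK1. B cell marker genes were open in all 4 libraries: the gene-end intervals of 7 of 8 markers summed to 480 to 484 CPM in control and 444 to 490 CPM in shIRF4. Of the T cell, myeloid, epithelial and fibroblast, and erythroid markers, 2 of 6, 2 of 5, 2 of 6 and 0 of 4 held a gene-end interval. Their sums were 34.2 to 39.6, 51.7 to 52.7, 8.56 to 9.37 and 0 CPM in control, and 33.0 to 33.5, 48.9 to 51.8, 10.1 to 10.4 and 0 CPM in shIRF4. The part of other cells in the results was not tested.

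Replication starts from origins. The origin recognition complex (ORC) binds them, CDC6 and CDT1 load the MCM2-7 helicase there, and CDC45, GINS, MCM10 and TOPBP1 switch the helicase on. Primase and polymerase alpha begin each strand, polymerases delta and epsilon extend it on the PCNA clamp that replication factor C (RFC) loads, RPA covers single strands, and FEN1 and LIG1 seal the lagging strand. Many of these genes are transcribed together before S phase under E2F factors, which recognise TTTCCCGC-like sites next to the start. IRF4 binds repeats of GAAA, or composite sites with ETS or AP-1 partners.

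The following sequences show the start sites on which the comparison turns. They are 7 starts with a match to the E2F letters below, at which no change was called, and the starts of ORC1 and POLD1, at which one was. Each runs from 180 bases before the annotated start to 30 bases after it, 5′ to 3′ on the gene's own strand (RefSeq, GRCh38.p14). Capitals mark matches to the E2F letters TTTCCCGC, TTTCGCGC, TTTGCCGC or TTTGGCGC on either strand. Only exact matches are marked, so a start without capitals may still hold a site that differs from these letters. The POLD1 sequence is that of its internal start.
MCM2 (chr3:127598231-127598440, plus strand): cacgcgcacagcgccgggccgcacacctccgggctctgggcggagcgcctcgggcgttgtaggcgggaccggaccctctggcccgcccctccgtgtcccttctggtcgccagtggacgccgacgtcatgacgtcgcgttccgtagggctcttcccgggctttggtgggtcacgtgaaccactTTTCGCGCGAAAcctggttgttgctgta
MCM3 (chr6:52284713-52284922, minus strand): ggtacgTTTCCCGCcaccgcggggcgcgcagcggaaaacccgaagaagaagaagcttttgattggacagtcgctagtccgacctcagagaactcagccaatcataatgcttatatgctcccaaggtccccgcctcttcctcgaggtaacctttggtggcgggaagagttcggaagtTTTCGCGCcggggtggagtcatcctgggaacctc
MCM6 (chr2:135876414-135876623, minus strand): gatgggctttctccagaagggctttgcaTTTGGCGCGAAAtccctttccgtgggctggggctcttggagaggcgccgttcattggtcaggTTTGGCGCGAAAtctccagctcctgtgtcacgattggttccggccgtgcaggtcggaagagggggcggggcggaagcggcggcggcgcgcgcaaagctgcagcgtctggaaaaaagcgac
CDC6 (chr17:40287699-40287908, plus strand): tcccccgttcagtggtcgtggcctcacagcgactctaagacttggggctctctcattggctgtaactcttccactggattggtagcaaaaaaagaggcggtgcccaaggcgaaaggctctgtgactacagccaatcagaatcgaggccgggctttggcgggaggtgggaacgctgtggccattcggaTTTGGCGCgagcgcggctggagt
CDT1 (chr16:88803609-88803818, plus strand): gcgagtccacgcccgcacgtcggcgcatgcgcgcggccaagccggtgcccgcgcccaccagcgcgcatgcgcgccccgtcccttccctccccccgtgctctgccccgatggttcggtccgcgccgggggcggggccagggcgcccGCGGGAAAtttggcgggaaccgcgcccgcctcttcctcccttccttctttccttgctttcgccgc
PCNA (chr20:5126593-5126802, minus strand): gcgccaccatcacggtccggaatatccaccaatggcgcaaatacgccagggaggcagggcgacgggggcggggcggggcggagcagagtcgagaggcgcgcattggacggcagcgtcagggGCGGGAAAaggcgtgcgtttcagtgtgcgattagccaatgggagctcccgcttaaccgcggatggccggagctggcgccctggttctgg
POLE (chr12:132687313-132687522, minus strand): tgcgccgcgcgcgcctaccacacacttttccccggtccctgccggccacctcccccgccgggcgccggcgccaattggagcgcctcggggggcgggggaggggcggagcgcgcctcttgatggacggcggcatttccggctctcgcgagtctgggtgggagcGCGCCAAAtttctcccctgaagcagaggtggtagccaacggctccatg
ORC1 (chr1:52404394-52404603, minus strand): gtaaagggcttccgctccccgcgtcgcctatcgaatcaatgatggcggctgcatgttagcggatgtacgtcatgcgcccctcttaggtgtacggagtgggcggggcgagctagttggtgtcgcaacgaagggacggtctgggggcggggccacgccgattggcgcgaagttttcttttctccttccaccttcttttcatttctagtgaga
POLD1 (chr19:50398672-50398881, plus strand): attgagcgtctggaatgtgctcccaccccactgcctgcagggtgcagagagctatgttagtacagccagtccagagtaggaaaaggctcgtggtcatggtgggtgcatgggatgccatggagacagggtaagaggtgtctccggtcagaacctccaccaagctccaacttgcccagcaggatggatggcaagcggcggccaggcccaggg

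Of the 43 genes, 37 were in the RefSeq promoter table, with 46 windows that reach from 250 bases before a start to 50 after it. An E2F match lay in 18 of the 46 windows (39.1%), in 18 genes, against 4.10% of 22199 windows of protein-coding genes. MCM6 held 4 matches, in 2 pairs that overlap on opposite strands, and MCM2 held 1 such pair just after its start. The median GC content was 64.3% in the members' windows and 62.3% in all windows. The CCAAT box (CCAAT, either strand) lay in 58.7% of member windows against 34.7% of all. Letters close to those that IRF4 and its partners recognise were rare in the windows of both sets. A GAAA followed after 2 bases by a second GAAA lay in 2.17% against 3.17%, a GGAA followed after 2 bases by GAAA in 4.35% against 2.52%, and the AP-1 letters TGANTCA in 2.17% against 6.15%. A match is a description of the letters and not evidence of binding.

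The start sites of the replication genes were open in TMD8 cells, and with IRF4 silenced 36 of 38 start intervals did not pass the test. All 37 genes of the promoter table had an interval over at least 1 of their windows, 38 intervals in all. Of these, 1 rose (ORC1) and 1 fell (the internal start of POLD1). Log2 fold changes ran from -0.34 to 0.24 with a median of 0.05. Over the 9858 intervals that overlap a promoter window of any protein-coding gene, 464 rose, 390 fell and the median was 0.04. Start intervals of the 18 genes with an E2F match numbered 19 and ran from -0.28 to 0.19, with 0 called higher and 0 lower by edgeR or DESeq2. At an unadjusted edgeR p under 0.05, 2 were higher and 1 lower. Those of the 19 genes without one also numbered 19 and ran from -0.34 to 0.24, with 1 higher and 1 lower. Per kb of interval, the control level was similar in both sets, with medians of 22.3 and 22.4 CPM per kb.

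**Figure D1:**
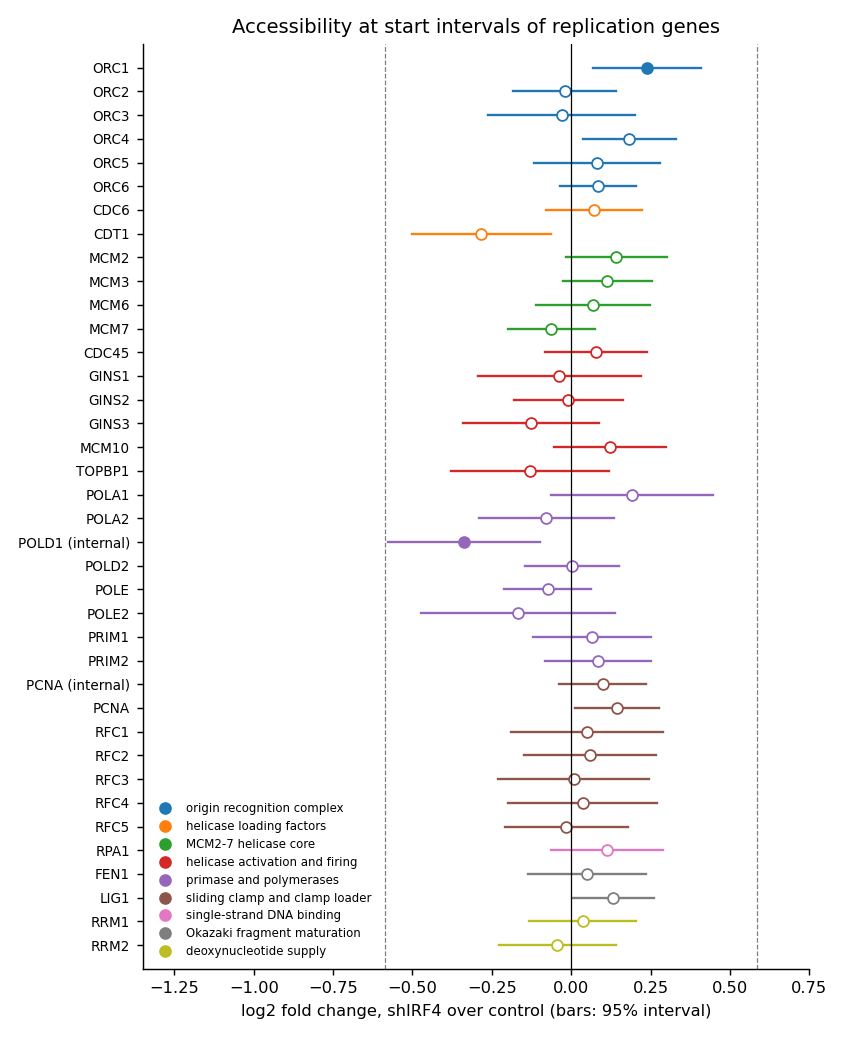
Log2 fold change of accessibility, shIRF4 over control, at the 38 start intervals (points) with 95% intervals (bars). The bars were derived from the edgeR F statistic on 2 libraries per group. Filled points passed the adjusted threshold, colours give the role, and dashed lines mark 1.5-fold. ORC1 and the internal start of POLD1 are filled, and all points lie between -0.34 and 0.24.

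Among the start intervals, openness differed more between genes than between conditions. Per kb, POLD2 was highest in control at 48.2 CPM per kb, followed by the internal and first starts of PCNA at 46.4 and 42.5, MCM3 at 37.7, ORC6 at 32.6 and MCM7 at 32.3. The lowest were CDT1 at 14.2, POLA1 at 13.4, RFC1 at 11.5 and the internal start of POLD1 at 10.8 CPM per kb. Of the 37 pairs of neighbours in this order, 25 overlapped between the control libraries, among them POLD2 and the internal start of PCNA, and ORC6 and MCM7. The other 12 did not overlap, among them the 2 starts of PCNA, the first of these and MCM3, MCM3 and ORC6, and RFC1 and POLD1.

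Over the whole table, 22.8% of 73028 tested intervals were called by edgeR at an adjusted p under 0.05 in either direction. Of the 115 replication gene intervals, all were tested, and 27 were called, 9 higher and 18 lower. With library totals in place of TMM factors the split was 12 higher and 15 lower. Gene-end and other intervals differed in this. At gene ends 2 of 45 rose and 2 fell, where 4.87% of all gene-end intervals rose and 5.35% fell. Away from gene ends 7 of 70 rose and 16 fell, where 7.77% of all such intervals rose and 17.7% fell. The members' shares, 4.44% and 4.44% at gene ends and 10% and 22.9% elsewhere, lie near those over the genome. The gene-end interval farthest from an end, 969 bp from RPA2, had a value of 0.03, and the nearest one beyond the limit, 1661 bp inside CDT1, -0.29.

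**Figure D2:**
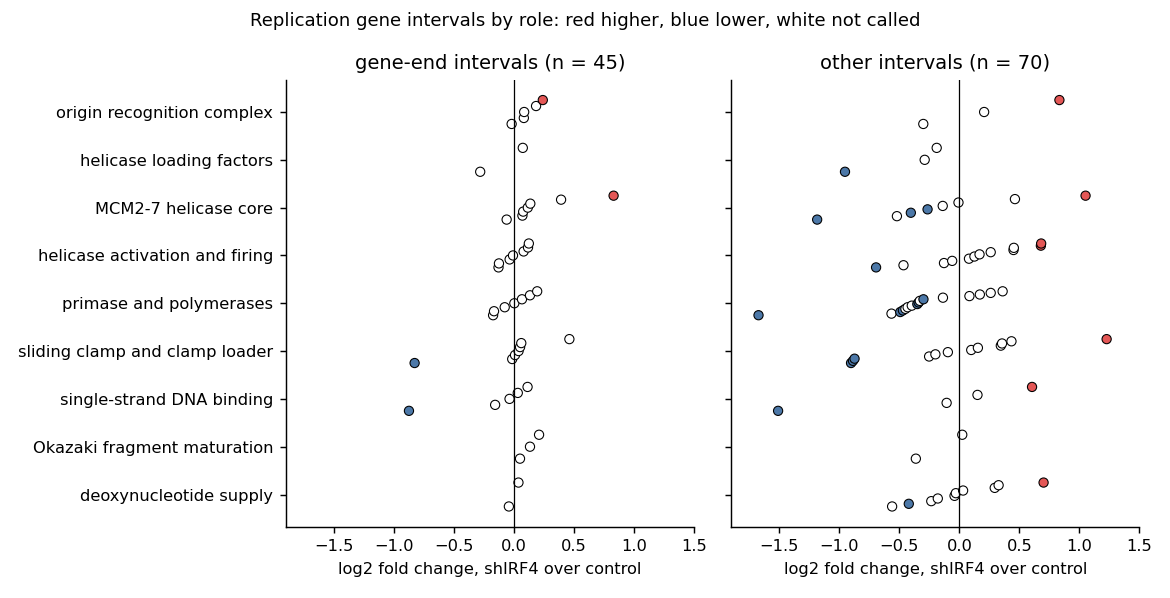
Log2 fold change of each of the 115 intervals by role of its gene, for gene-end intervals (left, n = 45) and other intervals (right, n = 70); red points rose, blue points fell and white points were not called by edgeR. Gene-end points cluster near 0 and the POLE interval at -1.67 is the lowest point.

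The median log2 fold change was 0.05 at the 45 gene-end intervals (0.03 over all gene-end intervals) and -0.12 at the 70 other intervals (-0.004 over all other intervals). Over the members' other intervals, the median against the shared control mean was -0.12 and -0.13 in the shIRF4 libraries. It was -0.001 and -0.02 over all other intervals. At gene ends these medians were 0.04 and 0.05 for members, beside 0.04 and 0.03 over all. They re-read the same libraries and are not separate support. Intervals of a gene are not independent, and 7 of the 70 lie at POLD1, between -0.47 and -0.14. The weight of POLD1 in the median was not tested. The median size of the change, in either direction, was 0.08 at gene ends and 0.34 elsewhere, beside 0.10 and 0.26 over all intervals of each kind. Precision differed as well. The 95% interval lay wholly within 1.5-fold of no change at 39 of 45 gene-end intervals (86.7%, and 84.1% over all gene ends) but at 26 of 70 others (37.1%, and 43.5% over all). For the other 6 gene-end intervals a change of 1.5-fold lies within the interval.

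**Figure D3:**
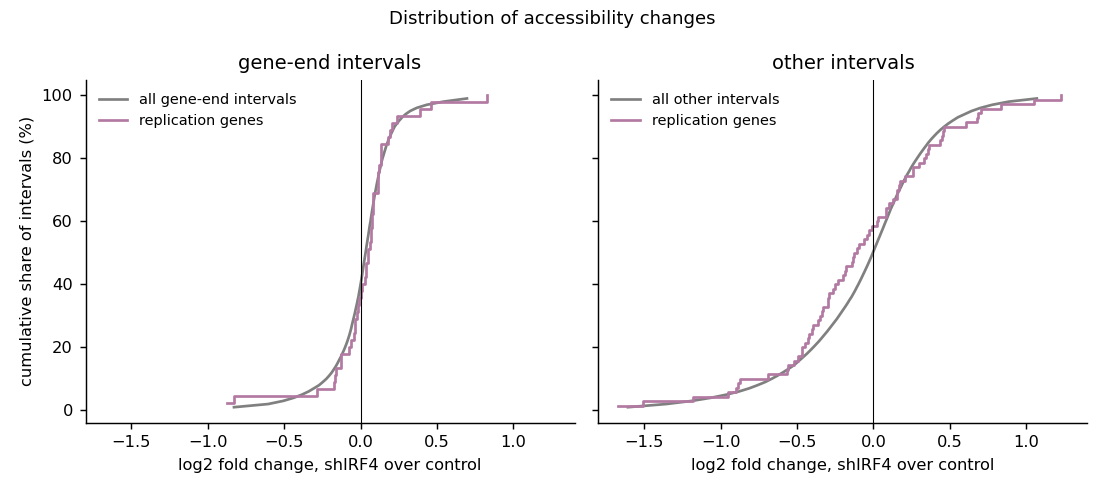
Cumulative share of intervals (%) against the log2 fold change, shIRF4 over control, for replication gene intervals (purple steps) and all tested intervals (grey, percentiles 1 to 99), at gene ends (left) and elsewhere (right). The gene-end curves rise steeply around 0, with medians of 0.05 and 0.03, and the curves of other intervals are broader, with medians of -0.12 and -0.004.

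In the origin recognition complex, ORC1, an ATPase subunit, was the 1 member whose start interval rose. It gave 28.4 and 26.3 CPM in control and 32.0 and 32.4 CPM in shIRF4, without overlap (log2 fold change 0.24, SE 0.08, edgeR adjusted p = 0.039). This 1391 bp interval lies over the ORC1 start and within 1 kb of an end of PRPF38A, and the counts do not tell the 2 genes apart. The call was lost without the first control library (0.29), without the second (0.18), without the first shIRF4 library (0.26), and with the control pair as 1 sample (0.24). ORC6, which binds the ring of the other subunits, gave 92.1 and 95.7 CPM at its start in control and 101 and 97.4 CPM in shIRF4, which was not called (0.08, adjusted p = 0.33). A small interval in the ORC6 body, chr16:46692066-46692258, rose from 2.77 and 2.01 CPM to 4.51 and 3.71 CPM (0.83, SE 0.23, adjusted p = 0.011). It was not called without the second control library (0.60) or the first shIRF4 library (0.66). Among the gene-end intervals assigned to the complex ORC2 had the lowest change, -0.02, with 39.2 and 38.0 CPM in control and 39.9 and 35.5 CPM in shIRF4, and the groups overlapped. ORC4 and ORC5 had no called interval, and the ORC3 start, assigned to RARS2, was at 13.8 and 14.3 CPM against 14.3 and 13.0 CPM (-0.03).

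Of the loading factors, CDT1 lost accessibility and CDC6 did not pass the test. An interval 4.5 kb outside CDT1 (4549 bp from its end, chr16:88798911-88799569) fell from 13.3 and 12.3 CPM to 7.22 and 5.56 CPM. The groups were far apart, and the change of -0.95 (SE 0.14, edgeR adjusted p = 3.2e-05) is a 1.93-fold loss. The CDT1 start interval, shown above with its E2F match, was at 18.9 and 16.9 CPM in control and 14.5 and 14.9 CPM in shIRF4 and missed the threshold (-0.28, SE 0.11, adjusted p = 0.058). The 2 intervals in the CDT1 body were also lower in value (-0.29 and -0.19) and not called. Summed over its 4 intervals, CDT1 fell from 60.8 and 60.1 CPM to 45.3 and 45.5 CPM (-0.41, SE 0.06, adjusted p = 7.8e-05), and this held in all 13 alternatives. The median over the 153 other intervals within 500 kb of the CDT1 interval was -0.14. CDC6 had 1 interval, at its start, with 37.9 and 39.7 CPM in control and 40.7 and 40.9 CPM in shIRF4 (0.07, adjusted p = 0.54).

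The start intervals of MCM2, MCM3, MCM6 and MCM7, subunits of the MCM2-7 helicase, were not called. MCM4 and MCM5 are not in the promoter table, and the gene-end interval given here for each was not called either. MCM2 gave 34.6 and 38.0 CPM in control and 40.0 and 40.3 CPM in shIRF4 in the interval shared with TPRA1 (0.14, adjusted p = 0.20). MCM3 gave 51.5 and 48.9 CPM against 54.1 and 54.5 CPM (0.11), and MCM6, whose window held the most E2F matches, 32.3 and 28.1 CPM against 32.8 and 29.9 CPM (0.07). MCM7 gave 63.2 and 60.0 CPM against 57.4 and 61.0 CPM (-0.06), the lowest change among the gene-end intervals of the helicase. MCM4, at 58.1 and 54.2 CPM against 60.0 and 57.9 CPM (0.08), and MCM5, at 26.5 and 28.6 CPM against 28.4 and 33.1 CPM (0.13), likewise overlapped between groups.

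At MCM3, 3 of 8 intervals were called. A 325 bp interval beyond its far end (817 bp away) rose from 1.76 and 1.86 CPM to 3.20 and 3.27 CPM (0.83, SE 0.24, edgeR adjusted p = 0.016). It was not called without the first control (0.79), the second control (0.87) or the first shIRF4 library (0.86). Another, 25.6 kb outside the gene (25643 bp), rose from 1.51 and 2.23 CPM to 3.64 and 4.47 CPM (1.05, SE 0.25, adjusted p = 0.0035), and was not called without the first control library (0.82). A broader interval 12429 bp outside MCM3 fell from 25.8 and 24.997 CPM to 19.4 and 18.8 CPM (-0.40, SE 0.09, adjusted p = 0.0022). In the body of MCM5, 10572 bp from its end, a broad interval (1980 bp) fell from 56.8 and 58.2 CPM to 47.9 and 47.8 CPM (-0.26, SE 0.07, adjusted p = 0.0056). It was not called without the second control library (-0.25). A faint interval near it fell from 3.36 and 3.12 CPM to 1.19 and 1.85 CPM (-1.18, SE 0.27, adjusted p = 0.0022), and was not called without the first shIRF4 library (-0.79). Summed over their intervals, neither MCM3 nor MCM5 was called.

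Of the factors that activate the helicase, 0 of 7 gene-end intervals were called by edgeR or DESeq2, and 0 had an unadjusted edgeR p under 0.05. Over all gene-end intervals 4.87% rose and 5.35% fell by edgeR, so 0 of 7 lies near those shares. Their changes ran from -0.13 to 0.12. GINS4, a subunit of the GINS complex, gave 51.1 and 55.1 CPM in control and 58.7 and 56.2 CPM in shIRF4 (0.12). MCM10 had the highest change, with 30.5 and 27.1 CPM against 32.1 and 30.1 CPM (0.12), and its groups overlapped. TOPBP1, which activates the ATR checkpoint kinase as well as the helicase, had the lowest change, with 12.1 and 12.8 CPM against 11.7 and 10.8 CPM (-0.13). In its body, 20157 bp from an end, TOPBP1 fell from 8.64 and 8.26 CPM to 5.27 and 5.13 CPM (-0.69, SE 0.16, edgeR adjusted p = 0.0024), and the sum of its 2 intervals fell by 0.35 on the log2 scale (SE 0.09, adjusted p = 0.011). That sum was not called without the second control library (-0.34). Single intervals rose at 2 further GINS genes. One in the body of GINS2 went from 3.61 and 2.46 CPM to 4.89 and 4.69 CPM (0.68, SE 0.22, adjusted p = 0.026), and was not called without the second control library (0.42) or the first shIRF4 library (0.65). One 7422 bp outside GINS3 went from 4.70 and 5.06 CPM to 8.63 and 6.44 CPM (0.68, SE 0.18, adjusted p = 0.0067), and was not called without the first shIRF4 library (0.41). A broad interval 12717 bp outside GINS3 gave 106 and 108 CPM in control and 110 and 93.5 CPM in shIRF4 and was not called (-0.06). CDC45 and GINS1 had no called interval.

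Of the 23 intervals of the primase and polymerase genes, 6 fell and 0 rose by edgeR, where 15.5% of all 73028 intervals tested fell and 7.26% rose. At an unadjusted p under 0.05, 1 was higher, and by DESeq2 0 were. All 6 lay at POLE and POLD1, the catalytic subunits of the leading-strand and lagging-strand polymerases. At POLE, a 2660 bp interval in the gene body, 9129 bp from its far end (chr12:132631562-132634221), was as open in control as the start of the gene, at 65.5 and 60.4 CPM. In shIRF4 it gave 16.0 and 25.5 CPM. This is the largest change among the 115 intervals, -1.67 (SE 0.12, edgeR adjusted p = 2.0e-09), or a 3.19-fold loss with a 95% interval of -1.92 to -1.43. The median of the 77 other intervals within 500 kb was -0.05. A second interval in the body of POLE, 15229 bp from that end, fell from 10.4 and 12.1 CPM to 7.76 and 8.51 CPM (-0.49, SE 0.14, adjusted p = 0.011). It was not called without the second control library (-0.37) or the first shIRF4 library (-0.40). Just past the far end, an interval assigned to a neighbour but within 922 bp of POLE fell from 7.97 and 9.23 CPM to 4.94 and 6.76 CPM (-0.63, SE 0.17, adjusted p = 0.0091), and was not called without the second control library (-0.50) or the first shIRF4 library (-0.34). The POLE start, in the interval shared with PXMP2, gave 60.2 and 58.4 CPM in control and 57.7 and 54.7 CPM in shIRF4, a change of -0.07 (SE 0.07, adjusted p = 0.47) that was not called. Summed over its 3 assigned intervals, POLE fell by 1.33 on the log2 scale (SE 0.10, adjusted p = 4.8e-07) in the fit used here, and in all 13 alternatives. The sum leaves out the start interval, which was assigned to PXMP2. Most of its control reads come from the 2660 bp body interval.

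**Figure D4:**
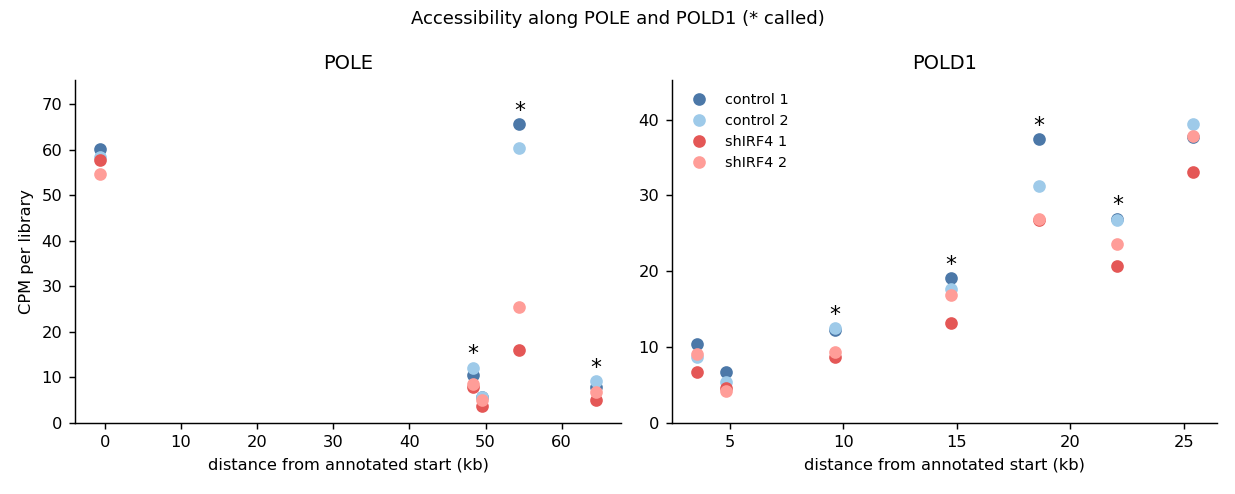
CPM in each of the 4 libraries against the distance (kb) from the first annotated start, for every interval of POLE (left, with the 2 intervals assigned to neighbours) and POLD1 (right); blue points are control, red points shIRF4 and asterisks mark calls. The POLE body interval drops from 65.5 and 60.4 to 16.0 and 25.5 CPM while the start stays between 54.7 and 60.2 CPM.

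At POLD1 the loss was smaller and spread along the gene. All 7 of its intervals were lower in value and 4 were called: 12.2 and 12.5 CPM fell to 8.74 and 9.27 CPM (-0.47, SE 0.13, edgeR adjusted p = 0.0086), 19.1 and 17.7 CPM to 13.1 and 16.8 CPM at the internal start (-0.34, SE 0.12, adjusted p = 0.037), 37.4 and 31.2 CPM to 26.8 and 26.9 CPM (-0.35, SE 0.09, adjusted p = 0.0061), and 26.9 and 26.8 CPM to 20.7 and 23.6 CPM (-0.30, SE 0.09, adjusted p = 0.020). The groups did not overlap at any of them. The intervals around the gene were lower too: over the 241 to 244 other intervals within 500 kb, the median change was -0.30, beside -0.30 to -0.47 at the called POLD1 intervals. The part of this stretch of chromosome 19 in the POLD1 values was not tested. The sum over POLD1 fell from 163 and 153 CPM to 121 and 137 CPM (-0.30, SE 0.06, adjusted p = 0.0013) and passed in all 12 alternatives that held the gene. Of the single calls, the 1st was lost without the second control library (-0.45) or the first shIRF4 library (-0.41), and the 3rd without the first control library (-0.22). The internal start and the 4th were lost without the first control (-0.28 and -0.29), the second control (-0.39 and -0.30) or the first shIRF4 library (-0.12 and -0.18), with library totals (-0.29 and -0.25), and with the control pair as 1 sample (-0.33 and -0.30). No interval analysed here overlapped the first annotated start of POLD1.

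The remaining polymerase and primase genes had no called interval. POLD2, the accessory subunit of polymerase delta, gave 50.2 and 51.7 CPM at its start in control and 48.6 and 54.1 CPM in shIRF4 (0.00). POLA1, the catalytic subunit of polymerase alpha, had the highest gene-end change of the group, with 10.1 and 11.6 CPM against 12.5 and 12.2 CPM (0.19, adjusted p = 0.29). POLD3 had the lowest, with 15.4 and 15.6 CPM against 13.9 and 13.5 CPM (-0.18, adjusted p = 0.27). In both of these the groups did not overlap, but the edgeR test did not call them.

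Both starts of PCNA, the sliding clamp, were among the 3 most open per kb of the 38 start intervals, and neither was called. The first start, in an interval assigned to CDS2, gave 82.5 and 82.0 CPM in control and 95.8 and 84.9 CPM in shIRF4 (0.14, SE 0.06, adjusted p = 0.11). The internal start gave 63.7 and 58.8 CPM against 66.6 and 64.3 CPM (0.10, adjusted p = 0.31). All shIRF4 values lay above all control values at both. With 2 libraries per group such a separation, here or at other intervals, is not a test. Its share over all intervals was not counted.

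Among the clamp loader genes, called changes lay away from the starts. At its start RFC5 gave 21.3 and 21.9 CPM in control and 22.2 and 20.2 CPM in shIRF4 (-0.02). In its body, in an interval that also lies inside WSB2 (chr12:118035133-118035922), RFC5 fell from 8.22 and 10.6 CPM to 5.59 and 4.36 CPM (-0.87, SE 0.17, edgeR adjusted p = 0.00057). The largest gain of the 115 intervals lay 61171 bp outside RFC3 (chr13:34038358-34038738), where 1.76 and 1.79 CPM rose to 4.23 and 4.04 CPM (1.23, SE 0.24, adjusted p = 0.00050), a 2.34-fold rise of a faint interval. The RFC3 start gave 12.4 and 13.1 CPM against 12.8 and 12.9 CPM (0.01). RFC2 fell at 2 small intervals near its far end, 1 of them a gene-end interval that went from 7.13 and 6.03 CPM to 3.96 and 3.16 CPM (-0.83, SE 0.19, adjusted p = 0.0026). The other went from 3.86 and 3.79 CPM to 2.06 and 2.07 CPM (-0.89, SE 0.23, adjusted p = 0.0068), and was not called without the first shIRF4 library (-0.87). The RFC2 start gave 17.9 and 21.1 CPM against 20.1 and 20.8 CPM (0.06).

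In RFC1, the large subunit, a 196 bp interval in the body fell from 2.94 and 3.65 CPM to 2.12 and 1.09 CPM (-0.90, SE 0.27, edgeR adjusted p = 0.018). It was not called without the second control library (-0.73) or the second shIRF4 library (-0.64). RFC4 had no called interval, and its far end had the highest gene-end change of the group, with 2.27 and 2.31 CPM against 3.26 and 2.95 CPM (0.46, adjusted p = 0.17). Summed over intervals, RFC2 (-0.20, adjusted p = 0.032) and RFC5 (-0.25, adjusted p = 0.043) fell. The RFC2 sum was not called without the second control library (-0.17), with library totals (-0.15) or with the control pair as 1 sample (-0.21). The RFC5 sum was not called without the second control (-0.18) or the second shIRF4 library (-0.19), or with library totals (-0.19). It was also lost with the replicate number as a block and with the control pair as 1 sample (-0.25). The same held with the WSB2 interval assigned elsewhere by nearest end (-0.03).

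The single-strand binding protein RPA has 3 subunits, and each had 1 called interval among those assigned to it. In RPA3, an interval in a stretch shared with UMAD1 (chr7:7701446-7701882) fell from 5.37 and 7.14 CPM to 2.33 and 1.96 CPM (-1.51, SE 0.22, edgeR adjusted p = 2.4e-05), a 2.85-fold loss. The interval past an end of RPA3, assigned to a neighbour, fell from 10.1 and 10.8 CPM to 8.20 and 7.09 CPM (-0.42, SE 0.14, adjusted p = 0.030). This was not called without the first control (-0.47), the second control (-0.37) or the second shIRF4 library (-0.35), with library totals (-0.37), or with the control pair as 1 sample (-0.43). A gene-end interval inside RPA3, over a start of UMAD1 and 4272 bp from an RPA3 end, gave 62.3 and 53.6 CPM against 57.2 and 55.2 CPM (-0.04). In RPA2, a 334 bp interval at an end of the gene fell from 5.12 and 4.91 CPM to 2.55 and 3.05 CPM (-0.88, SE 0.21, adjusted p = 0.0036), and was not called without the first shIRF4 library (-0.70). RPA2's other 2 gene-end intervals were not called (-0.16 and 0.03). RPA1, the DNA-binding large subunit, had the highest gene-end change, at its start, with 25.9 and 27.2 CPM against 27.8 and 30.002 CPM (0.11), and was not called there. An interval 17144 bp outside RPA1 rose from 4.03 and 3.05 CPM to 5.59 and 4.91 CPM (0.61, SE 0.20, adjusted p = 0.033). It was not called without the second control (0.41) or the first shIRF4 library (0.49), or with the control pair as 1 sample (0.60).

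At the genes of Okazaki fragment maturation, 0 of 5 intervals were called by edgeR or DESeq2, and 1 had an unadjusted edgeR p under 0.05. Over all intervals 7.26% rose and 15.5% fell by edgeR, so 0 of 5 lies near those shares. LIG1, the ligase that joins the fragments, gave 63.9 and 64.1 CPM at its start in control and 69.5 and 70.9 CPM in shIRF4 (0.13, SE 0.06, adjusted p = 0.14), although the 137 other intervals within 500 kb had a median of -0.23. FEN1, the flap nuclease, gave 24.5 and 24.5 CPM against 24.2 and 27.1 CPM at its start (0.05, the lowest gene-end change of this pair) and 2.10 and 1.86 CPM against 2.44 and 1.96 CPM at its other end (0.21, the highest).

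RRM1 and RRM2 form ribonucleotide reductase, which makes deoxynucleotides. The RRM1 start gave 29.0 and 29.2 CPM in control and 30.2 and 29.3 CPM in shIRF4 (0.04). The RRM2 start gave 26.7 and 29.5 CPM against 28.6 and 25.4 CPM (-0.04), and neither was called. RRM2 held 10 intervals, the most of any member, and 2 were called in opposite directions. One 38703 bp inside the gene rose from 2.18 and 2.98 CPM to 4.34 and 4.04 CPM (0.70, SE 0.22, edgeR adjusted p = 0.026). One 10222 bp outside it fell from 11.7 and 9.97 CPM to 8.03 and 8.07 CPM (-0.42, SE 0.14, adjusted p = 0.030). Both were lost without the first control library (0.51 and -0.31) or the first shIRF4 library (0.64 and -0.41). The fall was also lost with library totals (-0.37) and with the control pair as 1 sample (-0.42). The other interval of RRM1 was not called (0.03).

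By gene, 18 of the 41 genes (43.9%) had at least 1 called interval, 8 with a rise, 12 with a fall, and 2 (MCM3 and RRM2) with both. Of all 16325 genes with an interval, 41.5% had at least 1 called, 20.1% with a rise and 28.9% with a fall. The median number of intervals was 2 in the members and 3 in all genes, and a gene with more intervals has more chances of a call. The other 23 members had none. With all intervals of a gene summed, 1 gene rose (ORC1) and 6 fell (CDT1, TOPBP1, POLD1, POLE, RFC2 and RFC5), where 6.9% of 16326 genes rose and 13.5% fell. The median over the 41 sums was 0.04, beside 0.01 over all genes. The ORC1 sum (0.22, edgeR adjusted p = 0.042) rests on its 1 interval and was lost with the same settings as that interval, and with the replicate number as a block (0.22).

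In none of the 27 called intervals did the groups overlap, and in none of 11 other ways of fitting did a sign change. Neither is separate support, because the 27 were chosen by a test on these same 4 libraries. Of the 27, 5 were called in all 11: the POLE body interval and the intervals named by coordinates above at CDT1, RPA3, RFC5 and RFC3. These 5 were also the only members called by DESeq2, which called 6.26% of all intervals. None of the 5 lies within 1 kb of a gene end. Where the start of the same gene could be measured, it was not called: -0.07 at POLE, -0.28 at CDT1, -0.02 at RFC5 and 0.01 at RFC3. The difference between a body interval and its start was not tested.

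**Figure D5:**
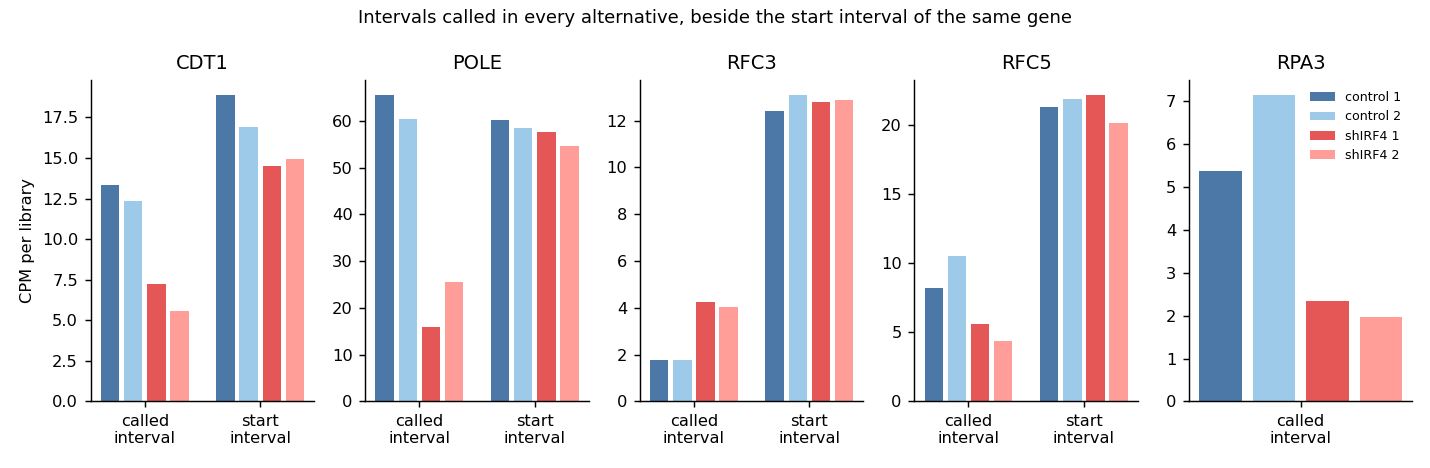
CPM in each library (bars, blue for the control pair and red for the shIRF4 pair) at the 5 intervals called in every alternative and at the start interval of the same gene; RPA3 had no entry in the promoter table. The called intervals separate the groups, and the POLE, RFC3 and RFC5 start bars are level within 54.7 to 60.2, 12.4 to 13.1 and 20.2 to 22.2 CPM. The CDT1 start bars are lower in shIRF4, at 14.5 and 14.9 CPM against 18.9 and 16.9 CPM in control, and were not called.

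Genes around the machinery were read in the same way, beside the 7.26% of all intervals that rose and the 15.5% that fell. For their gene-end intervals the matching shares over all gene ends are 4.87% and 5.35%. The E2F, RB and DREAM regulators that control many of these genes had 64 intervals, of which 8 rose and 9 fell, and 2 of 19 gene-end intervals rose while the rest were not called. The rises at gene ends were at RB1, the pocket protein that holds E2F in check, from 35.4 and 37.6 CPM to 45.6 and 47.0 CPM (0.34, SE 0.07, edgeR adjusted p = 0.0016), and at E2F5, from 53.3 and 56.0 CPM to 65.2 and 66.5 CPM (0.27, SE 0.07, adjusted p = 0.0042). The E2F5 call was lost without the first control library (0.23). DESeq2 called neither rise (adjusted p = 0.12 at RB1 and 0.21 at E2F5). Away from its end E2F5 also held the deepest loss of the list, in its body 13904 bp from an end, from 8.05 and 8.85 CPM to 3.09 and 3.16 CPM (-1.44, SE 0.18, adjusted p = 3.3e-06). RB1 held 1 loss too, 16644 bp outside the gene, from 2.35 and 4.24 CPM to 1.41 and 2.73 CPM (-0.84, SE 0.30, adjusted p = 0.048), where the groups overlapped. That call was lost without the second control (-0.33) or the first shIRF4 library (-0.29), with library totals (-0.79), with DESeq2's size factors or no filter (-0.84 in both), and with the replicate number as a block (-0.68). The most open interval of the list that fell was in the body of MYBL2, a transcription factor of the cell cycle, from 66.8 and 67.6 CPM to 43.0 and 49.9 CPM (-0.55, SE 0.07, adjusted p = 7.1e-06). The checkpoint genes had 26 intervals, 3 higher and 4 lower. All 4 losses and 1 rise lay at WEE1, a kinase that restrains CDK activity. The losses were 7196 to 21186 bp outside the gene, where the most open fell from 42.6 and 42.3 CPM to 27.5 and 26.9 CPM (-0.64, SE 0.08, adjusted p = 2.3e-06). The loss 7196 bp away was not called without the first shIRF4 library (-0.83). The one 21186 bp away was lost without the first control (-0.68) or the first shIRF4 library (-0.56). The one 17420 bp away was lost without the first control (-0.74), the second control (-0.71) or the first shIRF4 library (-0.78). DESeq2 called neither of the latter (adjusted p = 0.24 and 0.26). Other replication and fork factors had 47 intervals, of which 3 fell, and their 20 gene-end intervals held 0 calls by edgeR or DESeq2 and 1 at an unadjusted edgeR p under 0.05. Other nucleotide supply genes had 28, of which 4 fell, 1 of them at an end of TK1 (-0.32, adjusted p = 0.041). The TK1 call was lost without the first control (-0.35), the second control (-0.28) or the first shIRF4 library (-0.21), with library totals (-0.27), with the replicate number as a block (-0.30) and with the control pair as 1 sample (-0.32). Chromatin assembly genes had 18, with 2 higher and 3 lower. The medians of these lists lay between -0.04 and 0.11, beside 0.01 over all intervals.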

How the data were processed

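ATAC-seq of TMD8 cells (2 control and 2 shIRF4 libraries) was deposited by the authors as raw read counts per merged peak (interval), made with featureCounts 2.0.0 on 5′ read ends with duplicates ignored, per the file headers. The submitters' processing notes name hg38 as the build. For the aligner, the peak caller and a shift of read ends, nothing is given in the sources used here. Ignoring duplicates caps the count of densely read intervals.

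Counts were tested with edgeR 4.0.16 in R 4.3.3: filterByExpr (107 intervals removed, 73028 kept), TMM factors between 0.981 and 1.026, and the two-sided quasi-likelihood F-test on group, with Benjamini-Hochberg adjustment over all intervals at 0.05. "Rose", "fell" and "called" mean past that threshold. Values in brackets after CPM levels are log2 fold changes, shIRF4 over control. Sums per gene were fitted likewise over 16326 genes. DESeq2 1.42.0 was an alternative. The test was also run on simulated counts with the same dispersion in all libraries. That does not check it under the unequal spread of the real pairs. Gene ends came from a RefSeq table (GRCh38.p14) without strand, so starts and ends were told apart only where its promoter table, with strand, holds the gene. Python 3.11.15 with pandas 2.3.3 made the tables.

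The members and lists were chosen with earlier results of these data known. The text gives library values for every called member interval, for the gene-end intervals of highest CPM, highest and lowest change per role, and for the starts of 16 preset genes. From the other lists, only RB1, E2F5, MYBL2, WEE1 and TK1 are named. Further genes of these lists held called intervals, which are counted but not named. Left out were the sequences of intervals, because no genome sequence was used here.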

Additional observations from a re-analysis of the deposited data

How the results depend on the processing

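With DESeq2 in place of edgeR, calls fell to 4570 over all intervals, 5 of 115 at the members, 0 at their gene ends (2 at an unadjusted p under 0.05, against 8 by edgeR), 5 elsewhere and 3 of the summed genes (CDT1, POLD1 and POLE). Counts depended on single libraries. Leaving out each in turn gave 9043 to 20033 calls over all intervals, 13 to 34 at members, 1 to 6 at their gene ends, 12 to 28 elsewhere and 3 to 10 summed genes. At the members, 19 were called without the first control library, 16 without the second, 13 without the first shIRF4 library and 34 without the second. With the control pair summed as 1 sample, 22 member calls remained of 27, and 4 summed genes were called. Counting only start intervals gave 2 calls in place of 4 at gene ends. The median log2 fold change over members was 0.048 with library totals and 0.022 without chromosomes 19 and Y, and -0.018 to 0.015 without single libraries. Over gene-end members it was 0.064 with DESeq2, 0.098 with library totals, 0.040 without chromosomes 19 and Y, and 0.038 to 0.061 without single libraries. Deviations of same-numbered libraries from their group means were close to uncorrelated (r = -0.026 over 73028 intervals). The control libraries differ by little more than counting noise, so this check could not decide whether the libraries were paired. With the replicate block, 27 member intervals (9 higher, 18 lower) and 5 summed genes were called, and 16612 intervals in all. Counting every interval within 1 kb of a member's end, chosen after seeing the data, gave 5 calls. At 2 libraries per group, small changes at faint intervals were not detectable.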
